A study of Rattus norvegicus with 18 samples.

Results

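The mevalonate arm is the opening stretch of cholesterol synthesis, from acetyl-CoA to squalene. It was taken here as 8 listed genes, Acat2, Hmgcs1, Mvk, Pmvk, Mvd, Idi1, Fdps and Fdft1, chosen by symbol with earlier results of these data known. Of these, 7 were measured, through 11 probe sets, among 14217 genes in all; Hmgcs1 was not analysed here. Liver RNA of adult male Sprague Dawley rats had been hybridised to 18 Affymetrix arrays, 6 per group. All 3 groups were fed for 8 weeks and then fasted overnight. The chow group ate a chow diet, the HFD group a high fat diet, and the HFD+PE group this diet together with an extract of pomegranate skin, dosed at 150 mg per kg per day. The labels call the HFD livers fatty, and call both the chow and the HFD+PE livers normal. No group on chow with the extract was analysed here, so that the extract can be read only on top of the high fat diet. Levels are deposited log2 signals, on which a difference of 1 is 1 doubling. Changes were computed gene by gene, in an alternative run after centring each array on hepatocyte marker genes. Signals of different genes were not compared as amounts of RNA.

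As background, the liver is a main site of cholesterol synthesis, and its sterol enzymes are switched together. Acat2 joins acetyl-CoA units and Hmgcs1 adds another, on the way to mevalonate. Mvk and Pmvk add phosphates, Mvd removes a carboxyl group to give isopentenyl diphosphate, Idi1 converts this into its reactive isomer, Fdps assembles farnesyl diphosphate, and Fdft1 joins farnesyl units into squalene. When membranes run low in sterol, the membrane-bound transcription factor encoded by Srebf2 is cut and enters the nucleus, where it acts with NF-Y and Sp1 at promoters of these genes. When sterol is plentiful, Insig proteins hold it back.

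The members' promoters are shown as a description, and a link between their letters and the genes' levels was not tested. RefSeq promoters of assembly GRCr8 matched 6 of the 8 listed genes, from 250 bases before to 50 bases after the start of each gene. Hmgcs1 is among these 6, though its level was not analysed here, and Pmvk and Fdft1 are named only. The 250 bases before the start are printed 5′ to 3′ on the strand of the gene for Acat2, which opens the arm (chr1:50100590-50100839, plus strand), for Mvk, which held the most CCAAT runs (chr12:47819504-47819753, minus strand), and for Idi1 (chr17:66547525-66547774, minus strand) and Fdps (chr2:176804817-176805066, minus strand), whose mean levels lay furthest apart between chow and HFD+PE. Capitals mark CCAAT, the letters bound by NF-Y, or ATTGG, the same letters read on the opposite strand.
Acat2: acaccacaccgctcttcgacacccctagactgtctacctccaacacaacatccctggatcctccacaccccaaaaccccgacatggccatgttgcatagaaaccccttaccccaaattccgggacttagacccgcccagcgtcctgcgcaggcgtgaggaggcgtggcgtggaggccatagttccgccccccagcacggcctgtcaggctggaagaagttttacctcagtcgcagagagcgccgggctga
Mvk: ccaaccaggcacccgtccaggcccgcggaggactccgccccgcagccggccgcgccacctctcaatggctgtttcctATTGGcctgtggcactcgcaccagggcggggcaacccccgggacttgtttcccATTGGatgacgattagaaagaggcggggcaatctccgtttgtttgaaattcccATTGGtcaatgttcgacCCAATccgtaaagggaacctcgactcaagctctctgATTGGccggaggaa
Idi1: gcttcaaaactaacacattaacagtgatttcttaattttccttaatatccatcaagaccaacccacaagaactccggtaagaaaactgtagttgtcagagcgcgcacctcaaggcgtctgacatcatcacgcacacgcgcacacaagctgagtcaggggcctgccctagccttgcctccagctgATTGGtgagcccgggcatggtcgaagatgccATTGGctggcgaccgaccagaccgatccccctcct
Fdps: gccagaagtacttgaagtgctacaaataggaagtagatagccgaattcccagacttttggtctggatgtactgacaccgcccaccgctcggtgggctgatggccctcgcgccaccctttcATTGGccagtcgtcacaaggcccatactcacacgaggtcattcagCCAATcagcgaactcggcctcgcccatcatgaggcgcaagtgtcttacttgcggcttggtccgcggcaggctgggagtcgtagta
Mvk held 5 CCAAT runs, Idi1 and Fdps 2 each, and Acat2 0. Over the 300-base windows, CCAAT on either strand was in 5 of the 6 members matched, all but Acat2, against 37.5% of 33469 promoters. GGGCGG, the letters bound by Sp1, was in 5 of 6, all but Idi1, against 33.1%. TCACNCCA, a core of sterol regulatory elements, was in 0 of 6, against 3.89%, and the E-box CACGTG was in 0 of 6, against 6.42%. Of the genes from squalene to cholesterol, the next stretch of the pathway, 10 were matched. CCAAT was in 8 of these 10, GGGCGG in 9, TCACNCCA in 1 and CACGTG in 1, so that CCAAT and GGGCGG were not particular to the members. The motifs were searched separately, so that a base could count in more than 1. Such matches describe letters in a window, and a missing match says only that these letters are not in it.

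Of 153 pairs of arrays, 3 held no probe set that was more than 2 log2 units apart, while each of the other 150 held 18 to 109. Each of these 3 pairs was averaged into 1 animal, named by its array numbers as chow 3-4, HFD 1-2 or HFD+PE 3-4, so that 15 animals remained, 5 per group. The labels call the arrays biological replicates, so that the averaging rests on the values alone. A second number in the labels, with no stated meaning, is 1 for chow 2, HFD 5 and HFD+PE 4. It is 3 for all other arrays, HFD+PE 3 among them. The SD of the log2 differences between the 2 arrays was 0.117 for HFD 1 and 2, 0.215 for chow 3 and 4 and 0.260 for HFD+PE 3 and 4, and the last was no smaller than in some pairs of unlike animals, as HFD 3 and 5 (0.260). Hybridization control transcripts (spike-ins), added before hybridization, split the arrays into 5 with a mean of 12.4 to 12.9, being 3 chow and 2 HFD+PE arrays, and 13 with a mean of 11.4 to 11.8, which held all 6 HFD arrays. Groups were compared with limma over all 14217 genes, with Benjamini-Hochberg adjustment, and a gene passed the test at an adjusted p under 0.05. The diet comparison is HFD against chow, the extract comparison HFD+PE against HFD, and the combined comparison HFD+PE against chow.

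All 7 measured members had their highest mean in chow, a lower mean in HFD and their lowest mean in HFD+PE. None of them passed the test in any of the 3 comparisons, where 0% of all genes did. In the diet comparison the log2 changes ran from -0.82 for Idi1 to -0.39 for Mvk, with a median of -0.73. In the extract comparison they ran from -0.69 for Idi1 to -0.04 for Mvd, with a median of -0.34. In the combined comparison they ran from -1.51 for Idi1 to -0.62 for Mvk, with a median of -0.77. The median of all genes was 0, 0 and 0.01 in the same comparisons, and 46.6%, 46.6% and 45.6% of all genes were lower. The comparisons share animals, so that their directions are not separate evidence. The members were not lower in every treated animal: HFD 1-2 lay within the chow range for all 7, and HFD+PE 3-4 within or above it.

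**Figure D1:**
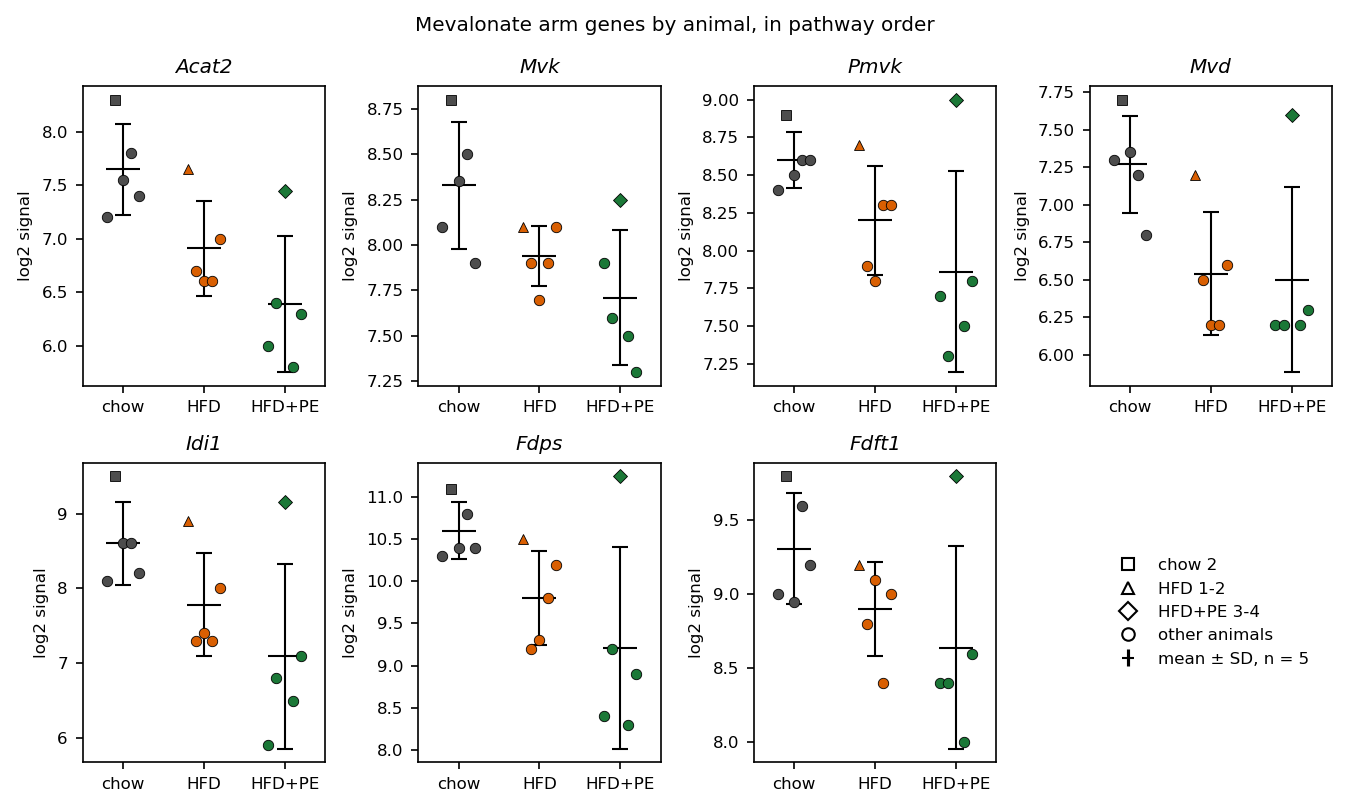
Log2 signal of the 7 measured members in pathway order, 1 point per animal, with each group's mean and SD as bars (n = 5). The square, triangle and diamond mark chow 2, HFD 1-2 and HFD+PE 3-4, each the highest of its group, or level with the highest, for all 7 members. Group means step down from chow to HFD to HFD+PE in each panel, while the HFD+PE 3-4 diamond lies above the other HFD+PE animals.

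Acat2, the cytosolic thiolase that opens the arm, had log2 levels of 7.2, 8.3, 7.55, 7.8 and 7.4 in chow 1, 2, 3-4, 5 and 6. In HFD 1-2, 3, 4, 5 and 6 the Acat2 levels were 7.65, 6.7, 6.6, 6.6 and 7.0. HFD+PE 1, 2, 3-4, 5 and 6 were at 6.0, 6.4, 7.45, 5.8 and 6.3. In both HFD and HFD+PE, 4 of 5 animals were below the lowest chow animal, and HFD 1-2 and HFD+PE 3-4 were the exceptions. The group means were 7.65 ± 0.42, 6.91 ± 0.44 and 6.39 ± 0.64 (SD, n = 5). The HFD+PE to chow difference was -1.26 ± 0.28 (log2, SE), or 2.40-fold, and ranked 43 of 14217 genes by p (limma adjusted p = 0.108). The HFD to chow difference was -0.74 ± 0.28 (limma adjusted p = 0.572), and the HFD+PE to HFD difference was -0.52, with a 95% interval from -1.11 to 0.07.

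Mvk and Pmvk are the kinases of the arm. Mvk ran from 7.9 to 8.8 in chow, with a median of 8.35, from 7.7 to 8.1 in HFD, with a median of 7.9, and from 7.3 to 8.25 in HFD+PE, with a median of 7.6. Its HFD values lay inside the chow range in all but 1 animal, and HFD+PE 3-4 was the highest HFD+PE animal. The Mvk combined change was -0.62 ± 0.18 (limma adjusted p = 0.190). Pmvk ran from 8.4 to 8.9 in chow, from 7.8 to 8.7 in HFD and from 7.3 to 9.0 in HFD+PE, with medians of 8.6, 8.3 and 7.7. For Pmvk, 4 of 5 animals of HFD and 4 of 5 of HFD+PE were below the lowest chow animal, and HFD+PE 3-4 was above the highest. The Pmvk combined change was -0.74 ± 0.25 (limma adjusted p = 0.257).

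Mvd, the decarboxylase, had log2 levels of 7.3, 7.7, 7.35, 7.2 and 6.8 in chow 1, 2, 3-4, 5 and 6. In HFD 1-2, 3, 4, 5 and 6 the Mvd levels were 7.2, 6.5, 6.2, 6.2 and 6.6, and in HFD+PE 1, 2, 3-4, 5 and 6 they were 6.2, 6.2, 7.6, 6.2 and 6.3. Apart from HFD 1-2 and HFD+PE 3-4, all animals on the high fat diet lay below the lowest chow animal, whether or not they had the extract. The Mvd means were 7.27 ± 0.32, 6.54 ± 0.41 and 6.50 ± 0.62 (SD, n = 5) in chow, HFD and HFD+PE. Mvd was the member with the smallest unadjusted p in the diet comparison, a change of -0.73 ± 0.26 (limma adjusted p = 0.569). Its extract change was -0.04, with a 95% interval from -0.58 to 0.50, and turned to 0.14 when HFD+PE 3 and 4 were kept apart as 2 animals.

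Idi1, the isomerase, had the widest spread. Its log2 levels were 8.1, 9.5, 8.6, 8.6 and 8.2 in chow 1, 2, 3-4, 5 and 6, and 8.9, 7.3, 7.4, 7.3 and 8.0 in HFD 1-2, 3, 4, 5 and 6. Among HFD+PE 1, 2, 3-4, 5 and 6 the Idi1 levels were 5.9, 6.8, 9.15, 6.5 and 7.1. All HFD+PE animals but HFD+PE 3-4 were below every HFD and chow animal, while HFD+PE 3-4 was above every HFD animal and all chow animals but chow 2. The Idi1 means were 8.60 ± 0.55, 7.78 ± 0.69 and 7.09 ± 1.23 (SD, n = 5). Its combined change was -1.51 ± 0.47, or 2.85-fold (limma adjusted p = 0.237), and its extract change was -0.69, with a 95% interval from -1.69 to 0.31.

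Fdps, which makes farnesyl diphosphate, had log2 levels of 10.3, 11.1, 10.4, 10.8 and 10.4 in chow 1, 2, 3-4, 5 and 6. In HFD 1-2, 3, 4, 5 and 6 the Fdps levels were 10.5, 9.2, 9.3, 9.8 and 10.2, and in HFD+PE 1, 2, 3-4, 5 and 6 they were 8.4, 9.2, 11.25, 8.3 and 8.9. HFD+PE 3-4 was here the highest of all 15 animals, and the other 4 HFD+PE animals were at or below the lowest HFD animal. The Fdps means were 10.6 ± 0.34, 9.80 ± 0.56 and 9.21 ± 1.20 (SD, n = 5), and the combined change was -1.39 ± 0.43, or 2.62-fold (limma adjusted p = 0.224). Fdft1, squalene synthase, closes the arm and ran from 8.95 to 9.8 in chow, from 8.4 to 9.2 in HFD and from 8.0 to 9.8 in HFD+PE, with medians of 9.2, 9.0 and 8.4. Chow 2 and HFD+PE 3-4 were both at 9.8, and HFD+PE 5 was the lowest animal at 8.0. The Fdft1 combined change was -0.67 ± 0.27 (limma adjusted p = 0.352).

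Against the unadjusted threshold of p under 0.05, the members can be read beside all genes. In the diet comparison, 3 of 7 members (Acat2, Mvk and Mvd) were lower at that threshold, against 3.57% of all genes. In the extract comparison, 0 of 7 were, against 1.06%. In the combined comparison, 7 of 7 were, against 5.14%. With HFD+PE 3 and 4 kept apart as 2 animals this became 4 of 7, against 5.49% of all genes, and the members' median in the extract comparison became -0.15. In the moderated F test for any difference between the 3 groups, 6 of 7 members, all but Fdft1, had an unadjusted p under 0.05, against 8.14% of all genes, with limma adjusted p from 0.294 to 0.654. Over all genes limma gave 1088, 384 and 1584 with an unadjusted p under 0.05 in the 3 comparisons, beside 0 with an adjusted one, where the smallest values were 0.315, 0.993 and 0.104. For no member did all 5 animals of a group lie below all 5 of another: this held for 0 of 7 members in each comparison, against 0.211% of genes for HFD below chow, 0.0563% for HFD+PE below HFD and 0.732% for HFD+PE below chow. Exact permutation of the animals, two-sided, gave p from 0.0238 to 0.119 for the members in the combined comparison, where 5 against 5 animals can give no less than 0.00794. The same exact test gave 0.0238 to 0.135 in the diet comparison and 0.175 to 1 in the extract comparison.

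The 7 members varied together from animal to animal. Averaged over the members, each animal's level minus the chow mean was -0.28, 0.53, -0.09, 0.11 and -0.27 in chow 1, 2, 3-4, 5 and 6. In HFD 1-2, 3, 4, 5 and 6 it was -0.02, -0.87, -0.89, -0.84 and -0.45, and in HFD+PE 1, 2, 3-4, 5 and 6 it was -1.41, -1.21, 0.31, -1.51 and -1.15. Hence 4 animals of HFD+PE were lower than all other animals, and HFD+PE 3-4 was higher than all but chow 2. Chow 2, HFD 1-2 and HFD+PE 3-4 were each the highest of their group for 7 of 7 members, HFD 1-2 level with HFD 6 for Mvk. HFD+PE 3-4 was above every HFD animal for 6 members and above every chow animal for 2, Pmvk and Fdps. Both of its arrays showed this, with Fdps at 11.2 and 11.3 and Idi1 at 9.1 and 9.2. HFD+PE 2, 5 and 6 lay below the lowest chow animal on 7 members and HFD+PE 1 on 6. HFD 3, 4 and 5 did so on 6, HFD 6 on 5 and HFD 1-2 on 0.

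**Figure D2:**
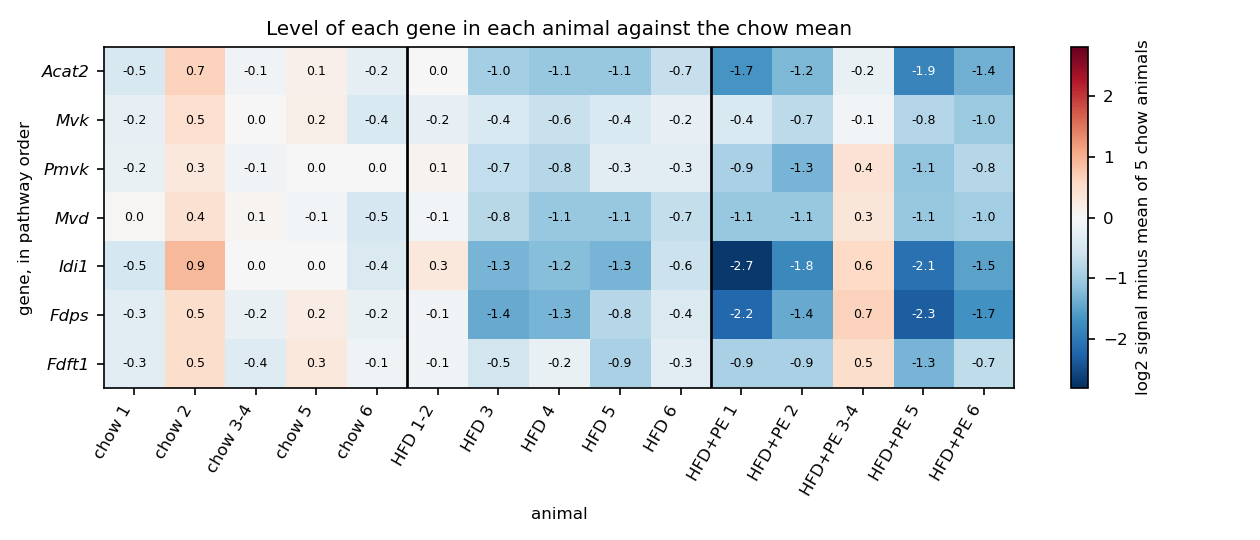
Log2 signal of each measured member (rows, in pathway order) in each animal (columns) minus the mean of the 5 chow animals, with blue for lower and red for higher and the value printed in each cell. The columns of chow 2 and HFD+PE 3-4 are mostly red and that of HFD 1-2 is near 0, while the other HFD and HFD+PE columns are blue throughout, deepest for Idi1 in HFD+PE 1 at -2.7.

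The spread of the members within HFD+PE was correspondingly wide. The SD of Idi1 was 1.23 and that of Fdps 1.20 there, against a median SD of 0.152 over all genes. Between 94.1% of genes (for Mvk) and 99.8% (for Idi1) had a smaller SD in HFD+PE than the member. Without HFD+PE 3-4 the SD fell to 0.512 for Idi1, 0.424 for Fdps and 0.050 for Mvd (n = 4), against a median of 0.15 over all genes, and between 1.04% (for Mvd) and 97.2% (for Idi1) of genes had a smaller one. Over the 15 animals the 21 pairs of members had Pearson correlations from 0.772 to 0.958, with a median of 0.887. After the group means were removed the correlations were 0.642 to 0.951, with a median of 0.848. These are descriptions over the same animals, RNA extracts and array normalization.

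Without HFD+PE 3-4, the HFD+PE to chow change passed the test for 5 of 7 members, against 0.169% of all genes called and lower. These were Acat2 at -1.53 (limma adjusted p = 0.00996), Fdps at -1.90 (0.00537), Pmvk at -1.03 (0.0138), Idi1 at -2.03 (0.0216) and Mvd at -1.05 (0.0310). Fdft1 at -0.96 (0.0623) and Mvk at -0.76 (0.0828) did not pass. Against HFD, 6 of 7 members then had an unadjusted p under 0.05 and were lower, against 1.3% of genes, with adjusted p of 0.999; Idi1 was at -1.21, Fdps at -1.10 and Mvd, the exception, at -0.32. Leaving out HFD 1-2 gave 5 of 7 members lower in HFD than in chow at an unadjusted p under 0.05, against 5.01% of genes. Leaving out HFD 1-2 also made the extract changes smaller, at -0.41 for Idi1, -0.42 for Fdps and -0.34 for Acat2, and turned that of Mvd to 0.13; 0 of 7 members then had an unadjusted p under 0.05 and were lower, against 1.49% of genes. Leaving out chow 2 gave 1 of 7 members, Mvd, lower in HFD than in chow at that threshold, against 2.67% of genes. In HFD+PE against chow it gave 6 of 7, against 4.19% of genes. These animals were singled out after their values were seen, so the values without them are a description of how far single animals carry the result.

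**Figure D3:**
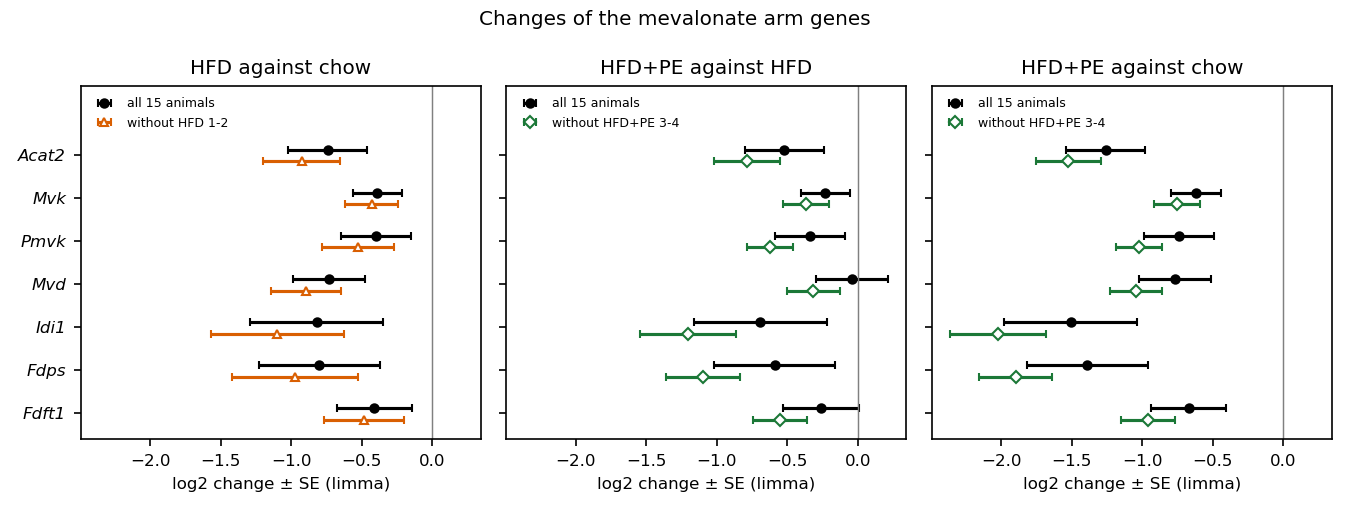
Log2 change ± SE (limma) of each measured member in the diet (left), extract (middle) and combined (right) comparisons, from all 15 animals (black) and without HFD 1-2 (orange triangles, left panel only) or HFD+PE 3-4 (green diamonds, middle and right panels only). All points shown lie left of 0, and each moves further left without the animal left out in its panel, as from -1.51 to -2.03 for Idi1 in the combined comparison. That direction was fixed in advance, because these animals are the highest of their group, or level with the highest, for all 7 members. Changes without HFD 1-2 in the extract comparison, or without chow 2, moved right for each member and are not drawn.

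Some members were read by further probe sets. Idi1 had a fainter probe set that followed the brightest across animals (r = 0.994), with changes of -0.89, -0.80 and -1.69 in the diet, extract and combined comparisons. A fainter Fdft1 probe set also followed (r = 0.922), at -0.47, -0.25 and -0.72. The fainter Mvk probe sets did not follow it closely. The brighter of them had group means from 5.19 to 5.47 and r = 0.424, with changes of 0.07, -0.28 and -0.21, and the dimmer had group means from 4.22 to 4.32 and r = -0.0077, with changes of -0.10, 0.02 and -0.08.

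The spike-in levels were unevenly spread over the groups, so that the members were also compared within each set of arrays. The arrays of chow 3-4, and those of HFD+PE 3-4, lay in different sets, so that each of these animals is in both. Among arrays of the lower set, 4 HFD+PE animals against 3 chow animals gave Acat2 at -1.08, Idi1 at -1.03 and Fdps at -1.14. Among arrays of the higher set, 2 HFD+PE against 3 chow animals gave Acat2 at -1.02, Idi1 at -1.27 and Fdps at -0.77. All 7 members had lower means in both sets, from -1.14 to -0.54 in the lower and from -1.27 to -0.13 in the higher. The 2 HFD+PE arrays of the higher set lay far apart. HFD+PE 1 had Acat2 at 6.0, Idi1 at 5.9 and Fdps at 8.4, whereas HFD+PE 3 had 7.3, 9.1 and 11.2. The SE (limma) in the higher set was 0.48 for Acat2, 0.95 for Idi1 and 0.80 for Fdps. HFD arrays were all in the lower set, where the HFD to chow changes were from -0.77 for Fdps to -0.33 for Mvk. With fewer animals in each set, 2 of 7 members in the lower set were lower at an unadjusted p under 0.05 in the combined comparison, against 4.11% of all genes. In the higher set 0 of 7 were, against 2.36%, and with the set as a term over all arrays 7 of 7 were, against 5.22%.

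The next stretch of the pathway, from squalene to cholesterol, had 11 of 12 listed genes measured. In the combined comparison 10 of the 11 were lower, 8 of them at an unadjusted p under 0.05, with a median of -0.91; none of the 11 passed the test. The median was -0.54 in the diet comparison, with 3 of 11 lower at that threshold, and -0.30 in the extract comparison, with 0 of 11. Cyp51, which demethylates lanosterol, was at -0.78, -0.55 and -1.33 in the diet, extract and combined comparisons. The sterol reductase Tm7sf2 was at -1.06, -0.32 and -1.38, the sterol ketone reductase Hsd17b7 at -0.54, -0.37 and -0.91, and the isomerase Ebp at -0.23, -0.30 and -0.53. In HFD+PE 3-4 the mean level of the 11 genes was 9.56, above the chow range of 8.80 to 9.46.

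Of the genes of sterol sensing and uptake, 8 of 12 were measured, and their medians were -0.09, -0.04 and -0.13 in the same order of comparisons. Insig1, which retains the Srebf2 protein in the endoplasmic reticulum, was at -0.66, -0.91 and -1.57 (limma adjusted p = 0.228 for the last). Srebf2 itself was at -0.20, -0.19 and -0.39, Mylip, which marks the LDL receptor for breakdown, at -0.25, -0.09 and -0.34, and the protease Mbtps1 at 0.09, 0.09 and 0.18. In the combined comparison, 3 of 8 were lower and 2 of 8, Mbtps1 and Scap, higher at an unadjusted p under 0.05. At that threshold 0 were lower and 1, Scap, was higher in the extract comparison, and 0 were lower or higher in the diet comparison. Scap was at -0.03, 0.23 and 0.20. None of the 8 passed the test. Of the acetyl-CoA suppliers all 3 were measured. Acss2, which activates acetate, was at -0.50, -0.36 and -0.86, Acly, which splits citrate, at 0.02, -0.73 and -0.71, and the citrate carrier Slc25a1 at -0.01, -0.25 and -0.26. The mitochondrial thiolase Acat1, which serves ketone body metabolism and not this arm, was at 0.19, 0.27 and 0.46.

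The branch that leads from isoprenoids to prenylated proteins, ubiquinone and dolichol had 11 of 12 genes measured, with medians of 0.01, 0.03 and 0.02. At an unadjusted p under 0.05, 1 of the 11, Pggt1b, was higher in the diet comparison, 0 in the extract comparison and 0 in the combined comparison, and 0 were lower in any. The prenyltransferase subunit Pggt1b was at 0.47, -0.04 and 0.43, Nus1, of dolichol synthesis, at -0.20, 0.03 and -0.17, Coq2, of ubiquinone synthesis, at 0.07, 0.09 and 0.16, and Icmt, which methylates prenylated proteins, at 0.05, 0.05 and 0.10. Fatty acid synthesis, all 11 genes measured, had medians of 0.02, -0.49 and -0.23, with 0, 4 and 4 genes lower and 1, 0 and 1 higher at an unadjusted p under 0.05. Fasn, fatty acid synthase, was at -0.59, -0.90 and -1.49, Scd, the stearoyl-CoA desaturase, at 0.11, -1.75 and -1.64, Acaca, acetyl-CoA carboxylase, at -0.24, -0.49 and -0.73, and the desaturase Fads1 at -0.10, -0.61 and -0.71. Srebf1, the gene counted as higher in the diet and combined comparisons, was at 0.76, -0.21 and 0.55. The fatty acid synthesis genes were mixed in the diet comparison, with changes from -0.59 to 0.80. In the diet comparison the medians of these 2 lists were near 0, and that of the members was -0.73; the difference between lists was not tested.

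**Figure D4:**
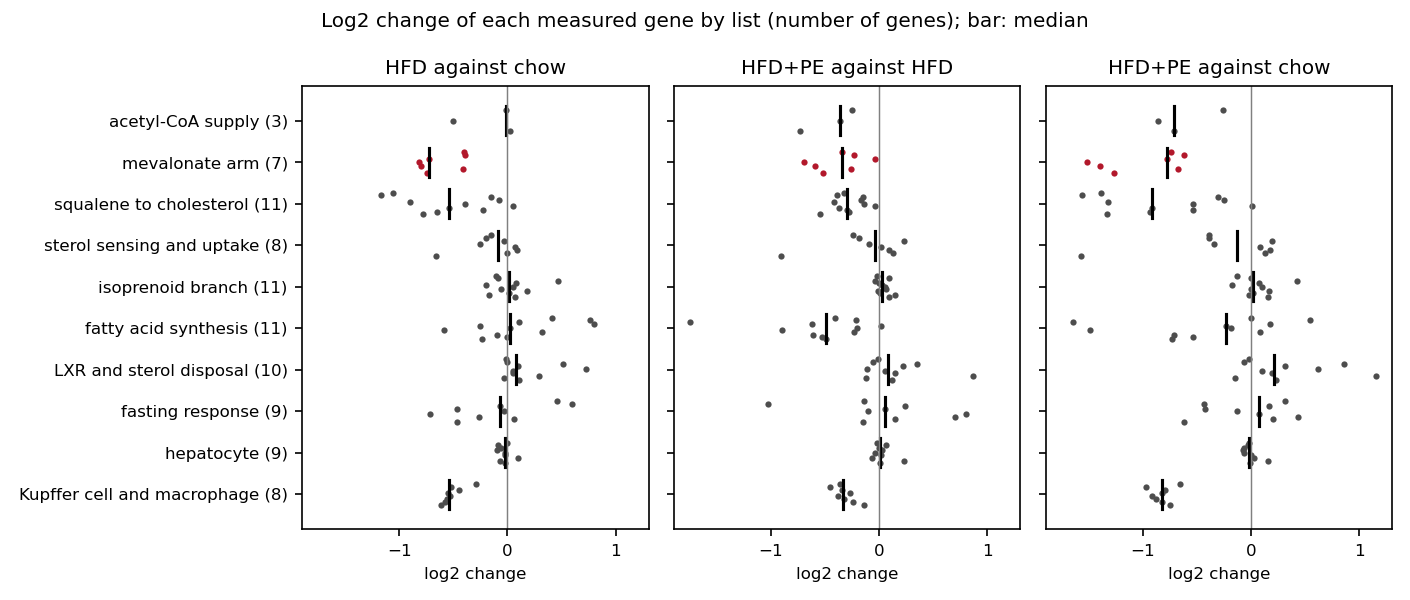
Log2 change of every measured gene by list, with the number of genes in parentheses, in the diet (left), extract (middle) and combined (right) comparisons; each point is a gene, the bar is the list's median, and members are red. The medians of the members, of squalene to cholesterol and of the Kupffer cell and macrophage markers lie left of 0 in all 3 panels. So do those of sterol sensing and uptake, from -0.13 to -0.04, and of acetyl-CoA supply, from -0.71 to -0.01. Those of the isoprenoid branch and of the hepatocyte markers lie near 0.

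The 10 named genes whose levels over the 15 animals were most like the mean of the members were Acss2, Cyp51, Sqle (squalene epoxidase), Tm7sf2, Apobec1, Msmo1 (a sterol demethylase), Pgd, Dhcr7 (a sterol reductase), Ebp and Fasn. Acss2 had r = 0.979 (Spearman rho 0.978), and Cyp51 had 0.974 (0.958). Fasn, the last of the 10, had r = 0.922 (0.911). After group means were removed, r was between 0.887 for Fasn and 0.964 for Acss2. Without the animals farthest from the median, HFD+PE 5 and chow 2, it was between 0.886 and 0.970. Over all 14210 other genes the median r was -0.009, and 11 genes had r above 0.9. Apobec1, which edits apolipoprotein B mRNA, had means of 7.13, 6.71 and 6.40 in chow, HFD and HFD+PE, and Pgd, an enzyme of the pentose phosphate pathway, had 8.26, 8.00 and 7.71.

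Whole liver holds several cell types, and in bulk RNA fewer cells of a type and less RNA per cell cannot be told apart. Hepatocyte markers, 9 of 10 measured, had mean levels of 13.98, 13.95 and 13.97 in chow, HFD and HFD+PE, Alb (albumin) alone 14.97, 14.95 and 14.96, with medians of change of -0.02, 0.01 and -0.02 and 0 of 9 at an unadjusted p under 0.05. When each array was centred on them, the members' medians were -0.70, -0.36 and -0.76. The hepatocyte markers lie toward the top of the deposited range, which ends at 15. Whether they could read a change there was not tested. Kupffer cell and macrophage markers, 8 of 10 measured, followed the groups: 8 of 8 were lower in each comparison, with medians of -0.54, -0.33 and -0.82, and 6, 0 and 8 of them had an unadjusted p under 0.05. Their mean level ran from 8.08 to 9.10 in chow, from 7.51 to 8.36 in HFD and from 7.05 to 8.04 in HFD+PE, and none was at 0. Adgre1, the dimmest, was at 5.77, 5.16 and 5.02 in chow, HFD and HFD+PE, near the array medians of 5.4 to 5.5 or below them. Chow 2 and HFD 1-2 were the highest of their groups on these markers too, at 9.10 and 8.36, whereas HFD+PE 3-4 was at 7.67, inside the range of its group. Their part in the members' differences was not tested.

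Among the other cell types, stellate cell markers, all 9 measured, had medians of -0.22, -0.13 and -0.35, with 2, 0 and 4 lower at an unadjusted p under 0.05. Endothelial markers, 6 of 8 measured, had -0.17, 0.02 and -0.14, cholangiocyte markers, 4 of 5, had -0.06, 0.00 and -0.07, and lymphocyte markers, 6 of 8, had 0.01, 0.05 and -0.05. Erythrocyte markers, 3 of 4, had -0.34, 0.08 and -0.26, and adipocyte markers, all 5 measured, had 0.10, -0.06 and 0.02. At an unadjusted p under 0.05, the cholangiocyte keratin Krt19 was lower and Epcam higher in the diet and combined comparisons, at -0.89, 0.20 and -0.69 and at 0.33, -0.06 and 0.27 in the diet, extract and combined comparisons. Of the endothelial markers Pecam1 was lower in the diet comparison (-0.30), Stab2 higher in the extract comparison (0.33) and Lyve1 lower in the combined comparison (-0.39). Of the erythrocyte markers Hbb was lower in the diet comparison (-0.57). Of the lymphocyte and adipocyte markers 0 reached that threshold in any comparison. These markers are named after their values were seen. No marker of any type passed the test, and their part in the members' differences was not tested.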

How the data were processed

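The submitters' processing notes name Affymetrix Expression Console and RMA, which removes background, makes the signal distributions of arrays equal and condenses each probe set into 1 value; the sources used here give no version of either. Deposited by the authors were log2 signals of 31099 probe sets on 18 arrays, rounded to 0.1, from 2.2 to 15. Arrays have no read depth, and their number limits the precision.

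Control probe sets (57) and probe sets with several or no gene symbols were left out, and the brightest probe set by mean over the 18 arrays stood for its gene. Symbols came from the platform annotation, updated through Entrez identifiers. The 15 animals were fitted with 1 mean per group in limma 3.58.1 (R 4.3.3), with moderated two-sided tests and Benjamini-Hochberg adjustment over 14217 genes. The fit was tested on simulated data. The labels call the samples biological replicates without naming the animals, so that p-values measure only the spread between these samples.

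The members, the pathway and marker lists, and the tests were chosen with earlier results of these data known. Named were all members, up to 4 genes of each pathway list with the smallest unadjusted p for HFD+PE against chow, all genes of lists of up to 3, and the 10 genes most like the members' mean. Srebf1, Scap and Abcg8 were named besides, after their values were seen. Genes with no named probe set were not analysed here. Alternatives covered array pairs, spike-in sets, probe set choice, dim genes, scaling, variance models, groups and single animals.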

Additional observations from a re-analysis of the deposited data

Results flagged for a closer look

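Of the 24 sets of 5 animals examined (7 members and their mean, in 3 groups), 2 held an animal far from the others, by Dixon's criterion of a gap over 0.71 of the range; chance gives about 1 in 20. Both were HFD+PE 3-4. Its Mvd level was 7.6, with the next HFD+PE animal at 6.3, a gap of 0.929 of the range. The mean of its 7 members minus the chow mean was 0.31, with the next HFD+PE animal at -1.15, a gap of 0.803 of the range. HFD+PE 3-4 is an average of 2 arrays, and both of its arrays read Mvd high, at 7.4 and 7.8. Its labels give no diet or treatment different from the rest of its group. The second label number is 3 for HFD+PE 3 and 1 for HFD+PE 4.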

How the results depend on the processing

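The median change of the members stayed below 0 in all 3 comparisons under every alternative run: it ran from -0.75 to -0.48 in HFD against chow, from -0.39 to -0.15 in HFD+PE against HFD and from -0.79 to -0.59 in HFD+PE against chow, and with each animal left out in turn from -0.90 to -0.58, from -0.63 to -0.20 and from -1.05 to -0.67.

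Genes past the adjusted p of 0.05 in HFD+PE against chow were 145 with all 18 arrays as separate animals, 119 with a replicate block on these, 18 with the spike-in sets in the model and 3 in the lower spike-in set, and 0 to 26 with an animal left out (26 without HFD+PE 3-4). In HFD against chow they were 1 with the sets in the model, 1 in the lower set and 0 to 1 with an animal left out, and in HFD+PE against HFD 0 to 2. Of the 145 and the 119 genes in HFD+PE against chow, none was a member. Acat2 had the smallest limma unadjusted p of the members there, 0.0012 and 0.0023. Members lower at an unadjusted p under 0.05, each count with the share of all genes in brackets, were, in HFD against chow, 0 in the lower set (3.14%), 0 without the 3 arrays whose second label number is 1 (2.87%), 7 with the 2 groups fitted alone (3.56%) and 1 to 5 with an animal left out (1 without chow 2, 2.67%; 5 without HFD 1-2, 5.01%). In HFD+PE against HFD they were 1 without those 3 arrays (0.985%) and 0 to 6 with an animal left out (6 without HFD+PE 3-4, 1.3%). In HFD+PE against chow they were 5 with all 18 arrays as separate animals (6.28%), 5 with the replicate block (6.16%) and 4 with HFD+PE 3 and 4 kept apart (5.49%). In that comparison they were also 2 in the lower set (4.11%), 0 in the higher set (2.36%) and 6 to 7 with an animal left out (3.95% to 5.56%). Sets hold fewer animals; otherwise the cause was not tested.

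Mvd in HFD+PE against HFD changed sign, to 0.033 with 18 arrays and with the replicate block on them, 0.14 with HFD+PE 3 and 4 kept apart, 0.0059 with the spike-in sets in the model and 0.085 in the lower set, and ran from -0.32 to 0.13 with an animal left out. Mvk changed sign in its dimmer probe sets, to 0.07 in HFD against chow and 0.02 in HFD+PE against HFD. Genes at an unadjusted p under 0.05, 384 in HFD+PE against HFD, were 725 with 18 arrays, 711 with the replicate block, 610 in the lower set, 197 without dim genes and 600 without HFD+PE 2. In HFD+PE against chow, 1584 became 711 in the higher set and 1040 without dim genes, and in HFD against chow 1088 became 652 without dim genes. Same-numbered arrays of different groups had correlations of their deviations from -0.31 to 0.19, 4 of 18 above 0.1. In HFD+PE against chow they ran from -0.04 to 0.19. Differently numbered arrays were not correlated for reference, so that whether the numbers pair the animals was not tested. The number of animals and the signal over background limit what can be seen: the dimmer Mvk probe sets lie near the array medians or below them.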

Other observations

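Genes of sterol disposal and of liver X receptor response, 10 of 11 measured, had medians of 0.08, 0.09 and 0.22 in the diet (HFD against chow), extract (HFD+PE against HFD) and combined (HFD+PE against chow) comparisons, and 1, 1 and 2 of them were higher at an unadjusted p under 0.05; none passed the limma test. Abcg5, which takes part in sterol export into bile, was at 0.29, 0.87 and 1.16 (limma adjusted p = 0.134 for the last). Abcg8, of the same list, was at 0.05, 0.15 and 0.20, with low group means, from 3.47 in chow to 3.67 in HFD+PE. Nceh1, a cholesteryl ester hydrolase, was at 0.51, 0.35 and 0.86 (limma adjusted p = 0.104 for the last). The sterol exporter Abca1 was at 0.11, 0.12 and 0.23, and the bile acid enzyme Cyp8b1 at 0.10, 0.22 and 0.32.

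Genes that respond to fasting, 9 of 10 measured, had medians of -0.07, 0.05 and 0.08 in the same order, with 1, 0 and 1 lower at an unadjusted p under 0.05. That gene was Angptl4, an inhibitor of lipoprotein lipase, at -0.47, -0.15 and -0.62 (limma adjusted p = 0.222 for the last). Cpt1a, which admits fatty acids to mitochondria, was at 0.06, 0.15 and 0.21, Pck1, an enzyme of gluconeogenesis, at -0.03, -0.10 and -0.13, and the hepatokine Fgf21 at -0.26, 0.70 and 0.44.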
